A study of Homo sapiens with 8 samples.

Results

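The 10 genes described here encode collagens that do not build the banded fibrils of scar tissue: COL4A1, COL4A2, COL6A1, COL6A2, COL6A3, COL7A1, COL8A1, COL12A1, COL16A1 and COL18A1. They were chosen by name, as the rows of these genes among the 25369 genes of the deposited tables, and all 10 passed the filter on low counts that left 14570 genes for testing. RNA-seq was done on LX-2, an immortalized human hepatic stellate cell line that is wild type by its label, so each value describes 1 line and not primary stellate cells. The cells grew on a fibronectin-coated polyacrylamide hydrogel that was soft (2 kPa) or stiff (40 kPa), for 2 or 4 days, with 2 libraries in each of the 4 conditions. The question was how matrix stiffness and time in culture shape the transcriptome of these cells.

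Collagens of this kind are assembled in the endoplasmic reticulum as trimers of chains wound into a triple helix, and then form sheets, beaded filaments or bridges around the fibrils. Collagen IV is the mesh of basement membranes, collagen VI the beaded filament of the pericellular matrix, collagen VII the anchoring fibril that ties a basement membrane to the stroma, and collagen VIII a short-chain network former. Collagens XII and XVI bind along fibrils, and collagen XVIII is a basement membrane proteoglycan whose C-terminal piece is endostatin. In liver, stellate cells lie in the space between hepatocytes and sinusoids and are a main source of matrix in fibrosis.

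Total counts ran from 19955975 to 27263935 per library, and the 10 genes together took 0.0889% to 0.209% of them, both extremes belonging to the second stiff library at 4 days and the first soft library at 2 days. The stiff libraries at 4 days stood apart from each other. The median absolute log2 difference between replicates was 0.445 there and 0.191 in soft at 4 days. At 2 days it was 0.131 in soft and 0.0849 in stiff. Each median was taken over the tested genes with reads in both replicates and a mean of at least 1 CPM in that condition. Of the 8 stellate markers examined, VIM, TAGLN, COL1A1, PDGFRB, THY1 and ACTA2 were detected in every library, whereas DES had at most 2 counts and LRAT at most 1. At 2 days the summed stellate markers stood at 3243–3548 CPM in soft and 3905–4143 in stiff, and at 4 days at 5309–5901 and 5329–7931. CPM are counts divided by the TMM-normalized library size, as edgeR gives it. Most of this sum was VIM, with a mean of 2016 CPM in soft and 2663 in stiff at 2 days. At that time VIM (0.40 on the log2 scale) and TAGLN (0.26) had higher estimates on stiff gel. ACTA2 (-0.21), PDGFRB (-0.47), THY1 (-0.38) and COL1A1 (-0.12) had lower ones, and none of the 6 was called by edgeR. With time, ACTA2, VIM and THY1 rose on both matrices. COL1A1 had lower values at 4 days in both libraries of each matrix (-0.47 on soft and -0.57 on stiff gel on the log2 scale, edgeR adjusted p = 0.0988 and 0.0574), and the estimates for PDGFRB were -0.13 and -0.32 and for TAGLN 0.25 and 0.77, none called. Of the hepatocyte list TTR had 0 counts and ALB at most 8, but SERPINA1 had 104 to 220 counts. Of the leukocyte list the macrophage marker CD163 had 0 counts, but CD14 had 48 to 205, and the summed endothelial list stayed at or below 1.30 CPM. The summed leukocyte list (89.7–108.7 CPM at 2 days, 106–127 at 4 days) was mostly CD68, and PTPRC rose with time on both matrices from at most 27 counts, as did SOX9 in the epithelial list (32.2–37 CPM summed at 2 days, 50.7–71.2 at 4 days). The part of these markers in the changes with time was not tested. In bulk RNA, fewer cells that express a gene and less of its RNA per cell cannot be told apart.

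COL4A1 and COL4A2 lie head to head on chromosome 13 and are transcribed away from each other, and the stretch between their start sites is shown because it lies before both genes, and COL4A2 was the most abundant of the 10 transcripts. In RefSeq (GRCh38.p14) it is the 126 bases at chr13:110307158-110307283, read here on the COL4A2 strand. Capitals mark a CCAAT box and a GC box (GGGCGG).
COL4A1–COL4A2: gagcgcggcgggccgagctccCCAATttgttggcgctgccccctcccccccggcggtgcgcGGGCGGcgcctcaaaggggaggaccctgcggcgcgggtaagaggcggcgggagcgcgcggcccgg
It is 80.2% G and C and holds 1 CCAAT box, 1 GC box and no TATA box (TATAAA).

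The 250 bases before the start of COL6A3 (chr2:237414165-237414414, minus strand) and of COL7A1 (chr3:48595330-48595579, minus strand) are shown because these 2 genes had the largest falls with time, on the stiff matrix. Capitals mark matches on either strand to the same motifs, a GC box on the other strand reading CCGCCC and a TATA box TTTATA.
COL6A3: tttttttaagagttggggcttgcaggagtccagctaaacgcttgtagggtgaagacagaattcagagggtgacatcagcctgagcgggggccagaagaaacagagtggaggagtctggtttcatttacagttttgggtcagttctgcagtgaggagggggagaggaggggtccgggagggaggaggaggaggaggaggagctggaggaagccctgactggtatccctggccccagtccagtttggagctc
COL7A1: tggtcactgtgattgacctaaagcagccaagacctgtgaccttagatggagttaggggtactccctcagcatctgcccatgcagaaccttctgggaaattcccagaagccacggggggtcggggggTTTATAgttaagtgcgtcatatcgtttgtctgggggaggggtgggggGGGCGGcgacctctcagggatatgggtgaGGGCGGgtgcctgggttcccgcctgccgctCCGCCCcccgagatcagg
The COL6A3 stretch held none of the motifs, and that of COL7A1 held 3 GC boxes and 1 TATA box. RefSeq windows of 300 bases (250 before the start and 50 after) were given for 8 of the 10 genes, with 2 windows for COL18A1. COL6A1 and COL8A1 had no window. None of the given windows contained the AP-1 motif TGANTCA on either strand, and bases outside them were not searched. Over all 35116 such windows of the genome, 7.71% held TGANTCA, 34.6% CCAAT, 45% GGGCGG and 11.5% TATAAA. These are matches of letters only.

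Levels between genes were compared per length, as the deposited FPKM (fragments scaled to gene length and library size, here by the authors with size factors). COL4A2 was the highest of the 10 genes in each of the 8 libraries, with 27.4% to 38.9% of their summed FPKM. On soft gel at 2 days it stood at 81.1 ± 8.36 FPKM (SD, n = 2), followed by COL6A2 at 47.6 ± 6.35, COL6A1 at 43.2 ± 5.44, COL6A3 at 39.5 ± 2.31 and COL18A1 at 39.0 ± 5.02. Neighbours among the last 4 overlapped in their libraries. COL4A1 (18.1 ± 0.992 FPKM), COL12A1 (12.7 ± 0.363) and COL8A1 (9.24 ± 0.558) came next without overlap, and COL7A1 (2.79 ± 0.0131) and COL16A1 (1.58 ± 0.0959) were lowest.

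The order on stiff gel at 4 days was another one. COL4A2 (81.0 ± 33.9 FPKM, SD, n = 2) was again first and COL6A2 (33.0 ± 4.75) second, but COL8A1 (25.7 ± 14.3) came next, above COL18A1 (25.5 ± 0.278), COL6A1 (19.3 ± 3.49), COL4A1 (19.2 ± 9.42) and COL12A1 (12.4 ± 6.99). COL6A3 had moved down to 5.85 ± 3.03 FPKM, and COL16A1 (0.801 ± 0.206) and COL7A1 (0.573 ± 0.066) closed the list. The libraries of COL8A1 (15.6 to 35.8 FPKM) overlapped with those of COL6A2, COL18A1, COL6A1, COL4A1 and COL12A1. Those of COL4A1 (12.6 to 25.9) also overlapped with COL18A1, COL6A1 and COL12A1, and those of COL12A1 (7.45 to 17.3) with COL6A1 and COL6A3. The summed FPKM of the 10 genes were 315 and 275 in soft at 2 days, 266 and 270 in stiff at 2 days, 246 and 285 in soft at 4 days, and 270 and 177 in stiff at 4 days.

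**Figure D1:**
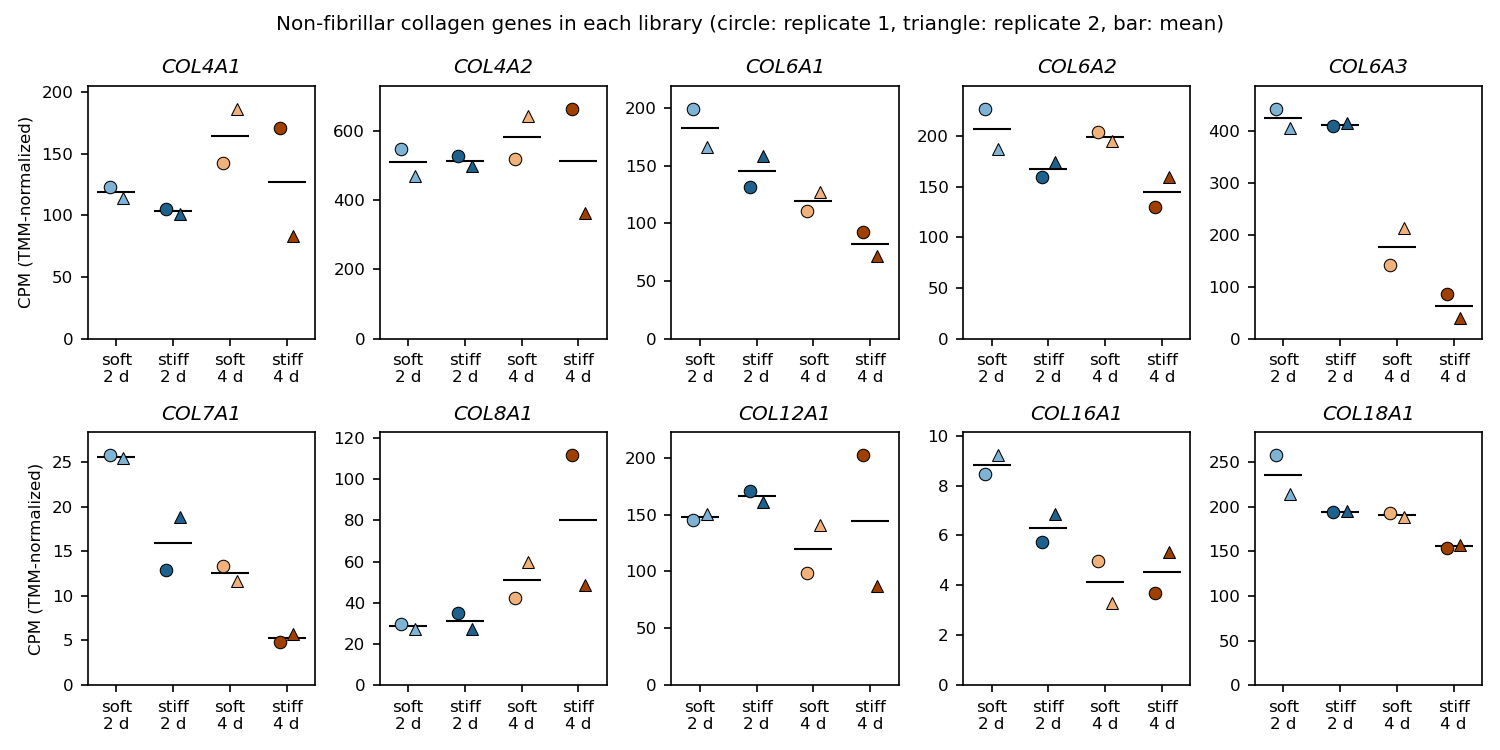
Normalized CPM of each gene (vertical axis, from 0, a scale of its own per panel) in the 8 libraries, by matrix and day on the horizontal axis; circles are replicate 1, triangles replicate 2 and bars the mean of the 2. On stiff gel COL6A3 drops from 408 and 415 CPM at 2 days to 86.1 and 40.2 at 4 days. The stiff 4-day libraries lie far apart in COL4A1, COL4A2, COL8A1 and COL12A1.

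With time on the stiff matrix, COL6A3, COL7A1 and COL6A1 fell and COL8A1 rose between 2 and 4 days. COL6A3 fell the most, 6.51-fold, and COL8A1 rose 2.58-fold. The other 6 genes, among them both collagen IV chains, did not pass the test. Thus 3 of 10 were lower and 1 of 10 higher, beside 13.7% of all genes tested called lower and 14.0% called higher (edgeR quasi-likelihood test, Benjamini-Hochberg adjusted p under 0.05).

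COL6A3 (GRCh37, chr2:238232646-238322971) encodes the long chain of collagen VI with its many globular domains, and stood at 408 and 415 CPM in the stiff libraries at 2 days and at 86.1 and 40.2 at 4 days. Both 4-day libraries were far below both 2-day ones. The log2 fold change was -2.70 (SE 0.35, adjusted p = 0.0029 by edgeR). COL6A1, a shorter chain of the same trimer, stood at 132 and 159 CPM and then at 92.5 and 71.9, a log2 fold change of -0.82 (SE 0.18, edgeR adjusted p = 0.0156), again without overlap. COL6A2, which completes the trimer, did not pass: it stood at 160 and 175 CPM at 2 days and 130 and 160 at 4 days, and its estimate was -0.21, with a 95% interval from -0.58 to 0.16.

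COL7A1 (GRCh37, chr3:48601506-48632762), the only chain type of anchoring fibrils, went from 12.9 and 18.9 CPM to 4.86 and 5.76 CPM on stiff gel, the last 2 values being 99 and 100 counts. The log2 fold change was -1.58 (SE 0.22, edgeR adjusted p = 0.00346). COL8A1 (GRCh37, chr3:99357319-99518070), a chain of the collagen VIII network, stood at 34.8 and 27.4 CPM at 2 days and at 111.5 and 48.8 CPM at 4 days, a log2 fold change of 1.37 (SE 0.36, edgeR adjusted p = 0.0282). Both later libraries were above both earlier ones, although the later libraries lay further from each other than the lower of them lay from day 2.

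COL4A1 stood at 105 and 101 CPM and then at 170 and 83.2, and COL4A2 at 527 and 496 and then at 662 and 362, so the 4-day values of each chain enclosed the 2-day values. Their log2 fold changes were 0.30 (95% interval -0.40 to 0.99) and 0.00 (-0.62 to 0.62). COL12A1, which decorates collagen I fibrils, had the same arrangement, with 171 and 162 CPM before and 202 and 87.4 after. COL16A1 had a log2 fold change of -0.49 (SE 0.27, edgeR adjusted p = 0.205) and COL18A1 of -0.32 (SE 0.13, edgeR adjusted p = 0.111), with no overlap between days in either. Without overlap were 6 of 10 genes, beside 62.7% of all genes tested.

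These calls depended on the libraries used. The fit to the 4 stiff libraries alone called 0 of 14069 genes and so 0 of the 10, with edgeR adjusted p of 0.0521 for COL6A3, 0.0586 for COL7A1, 0.0909 for COL6A1 and 0.114 for COL8A1. Without the first or without the second stiff library at 2 days the count was 2 (COL6A3 and COL7A1), beside 5.74% and 3.14% of all genes tested in those fits. Without either of the soft libraries at 2 days it was 3, beside 16.4% and 16.5%. Without the first or the second stiff library at 4 days it was 6 or 9, beside 52.1% and 43.8%. COL8A1 changed by 0.65 without the first stiff library at 4 days and by 1.83 without the second.

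With time on the soft matrix, COL6A3, COL16A1, COL7A1 and COL6A1 fell, COL6A3 2.40-fold, COL16A1 2.14-fold, COL7A1 2.04-fold and COL6A1 1.53-fold. No member rose by the test. This was 4 of 10 called lower and 0 of 10 called higher, beside 13.3% of all genes tested called lower and 14.1% called higher. With no scaling factors between libraries the calls over all genes shifted towards lower (1438 higher and 2130 lower, from 2052 and 1933, on soft; 1305 and 2313, from 2034 and 1990, on stiff), and the same 4 members were called on soft gel. On stiff gel COL6A1, COL6A3 and COL7A1 kept their calls in that setting, COL8A1 lost its call (1.27, edgeR adjusted p = 0.0534) and COL18A1 gained one (-0.45, edgeR adjusted p = 0.0412).

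COL6A3 stood at 441 and 405 CPM in the soft libraries at 2 days and at 141 and 212 at 4 days, a log2 fold change of -1.26 (SE 0.34, edgeR adjusted p = 0.0286). COL7A1 went from 25.7 and 25.5 CPM to 13.4 and 11.7, a change of -1.03 (SE 0.21, edgeR adjusted p = 0.011). COL6A1 went from 199.5 and 166 CPM to 111 and 128, a change of -0.62 (SE 0.18, edgeR adjusted p = 0.0397). In each of these the 2-day and 4-day libraries were apart.

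COL16A1, a minor fibril-associated collagen, was measured with few reads, 241 and 256 counts at 2 days and 107 and 73 at 4 days on soft gel. It went from 8.48 and 9.21 CPM to 4.99 and 3.29, a log2 fold change of -1.10 (SE 0.26, edgeR adjusted p = 0.0196). Its change on soft gel and its uncalled change on stiff gel were not shown to differ: the difference between them was 0.61 (SE 0.37, 95% interval -0.25 to 1.47, edgeR adjusted p = 1).

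COL8A1 stood at 29.9 and 27.3 CPM and then at 42.3 and 59.7 on soft gel, both later libraries above both earlier ones, but the change of 0.84 (SE 0.36) did not pass (edgeR adjusted p = 0.12). COL4A1 went the same way, from 123 and 114 CPM to 143 and 186 (0.47, SE 0.30, edgeR adjusted p = 0.269). COL4A2 overlapped between days, at 546 and 470 and then 518 and 642 CPM. COL6A2 (227 and 187, then 204 and 195 CPM) overlapped as well, with a log2 fold change of -0.05 and a 95% interval from -0.42 to 0.31. COL18A1 (-0.30) and COL12A1 (-0.30) had lower values at 4 days in both libraries, with edgeR adjusted p of 0.127 and 0.549. In all, 8 of 10 genes did not overlap between days, beside 75.3% of all genes tested.

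The soft calls rested on every soft library. Without the first or without the second soft library at 2 days, and without the second at 4 days, the count of called members was 0, beside 2.32%, 7.83% and 8.22% of all genes tested, and without the first at 4 days it was 1, beside 6.76%. Leaving out either stiff library gave 2 at the earlier time, beside 16.2% in each fit, and 8 at the later one, beside 52.9% and 52.7%. Over all 20 other settings the log2 fold change of COL6A3 stayed between -1.59 and -1.02 and that of COL7A1 between -1.16 and -0.69.

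**Figure D2:**
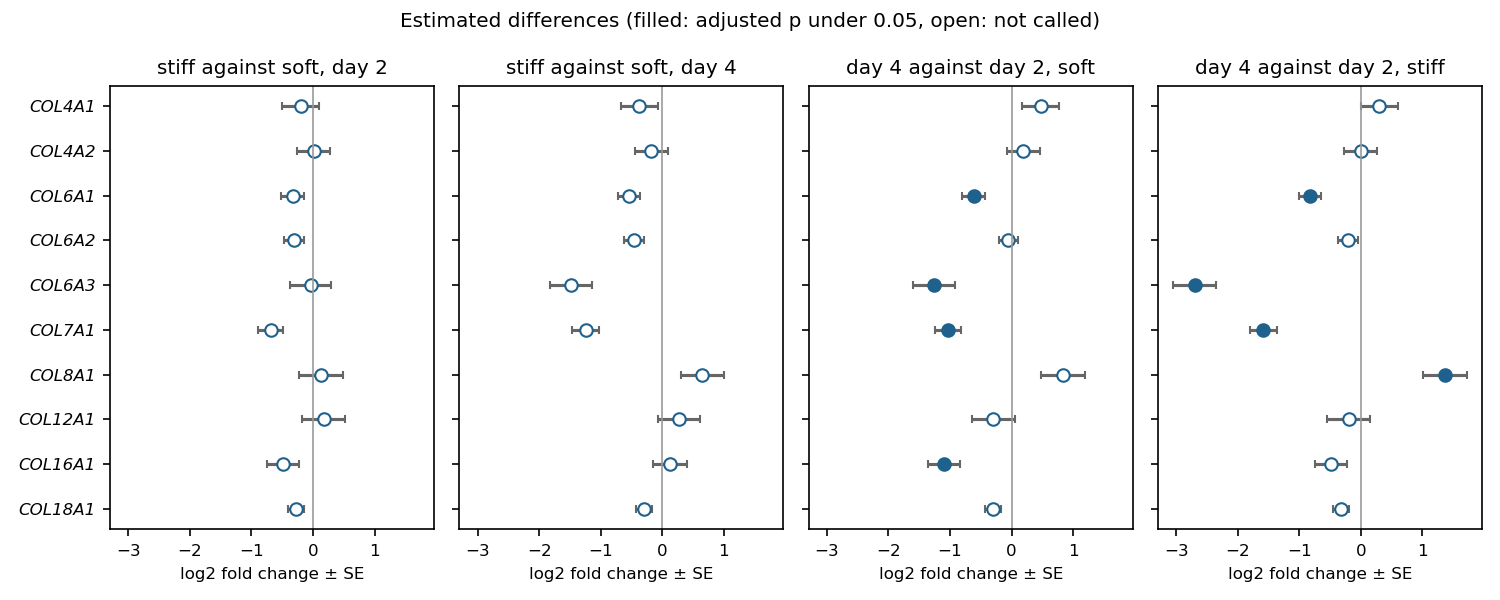
Log2 fold changes (horizontal axis, points) with their standard errors (bars) for each gene in the 4 comparisons, from the fit of all 8 libraries; filled points had an adjusted p under 0.05. Filled points occur in the comparisons of 4 with 2 days, 4 on soft gel and 4 on stiff gel, and the largest estimate is COL6A3 on stiff gel at -2.70.

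The proportions of the collagen VI chains stood apart between days in these libraries. No test was run on these proportions or on those of the collagen IV chains given next. The ratio of COL6A3 to COL6A1 in FPKM was 0.874 and 0.962 on soft and 1.22 and 1.03 on stiff gel at 2 days. At 4 days it was 0.501 and 0.657 on soft and 0.368 and 0.221 on stiff gel, so each 4-day library was below each 2-day library, and at 4 days both stiff values were below both soft values. The ratio of COL6A2 to COL6A1 moved the other way, from between 1.07 and 1.18 in the 2-day libraries to between 1.36 and 2.16 in the 4-day libraries. These ratios are taken within a library, where the scaling between libraries cancels.

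In collagen IV, COL4A2 exceeded COL4A1 in FPKM in every library, 3.60-fold to 5.23-fold, while the common protein trimer holds 2 COL4A1 chains and 1 COL4A2 chain. The ratio was also lower at 4 days than at 2 days on each matrix without overlap, going from 4.62 and 4.32 to 3.79 and 3.60 on soft gel and from 5.23 and 5.11 to 4.05 and 4.54 on stiff gel. Centred on their own means over the 8 libraries, the log2 CPM of COL4A1 and COL4A2 differed by a root mean square of 0.181, the second closest of all pairs of the 10 genes after COL6A2 and COL18A1 at 0.133. Replicates that stood apart contribute to such likeness.

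**Figure D3:**
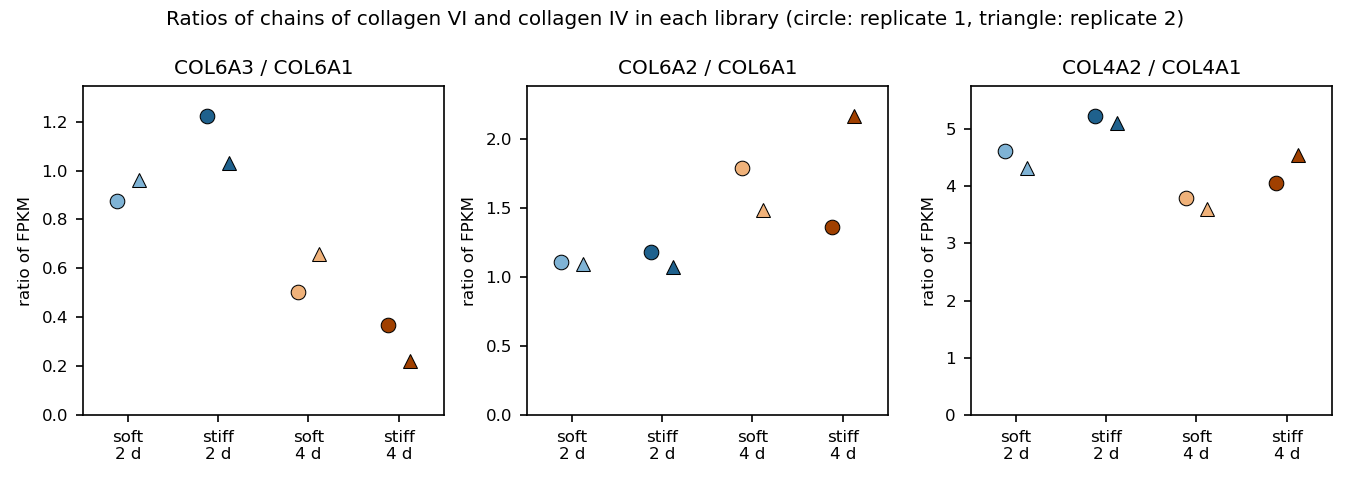
Ratios of deposited FPKM between chains of collagen VI (COL6A3 or COL6A2 over COL6A1) and of collagen IV (COL4A2 over COL4A1) on the vertical axes, which start at 0, in each library by matrix and day; circles are replicate 1 and triangles replicate 2. COL6A3 over COL6A1 is between 0.874 and 1.22 at 2 days and between 0.221 and 0.657 at 4 days.

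Between stiff and soft gel at 4 days, COL6A3, COL7A1, COL6A1, COL6A2 and COL18A1 had lower values in both stiff libraries than in both soft ones, and COL8A1, COL12A1, COL16A1 and the collagen IV chains overlapped. None of the 10 genes passed the adjusted test, beside 0.247% of all genes tested (edgeR, Benjamini-Hochberg). At an unadjusted p under 0.05 there were 4 of 10 (COL6A1, COL6A2, COL6A3 and COL7A1), beside 6.93%. The 5 genes without overlap stood beside 25.7% of all genes tested. DESeq2 called 2 of the 10, COL6A3 (adjusted p = 0.00255) and COL7A1 (adjusted p = 0.000756), and 164 of all genes.

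COL6A3 was at 141 and 212 CPM on soft and 86.1 and 40.2 on stiff gel, which gave a log2 fold change of -1.48 (SE 0.34, 95% interval -2.27 to -0.70, edgeR adjusted p = 0.224). COL7A1 was at 13.4 and 11.7 CPM on soft and 4.86 and 5.76 on stiff gel, with -1.24 (SE 0.22, 95% interval -1.75 to -0.73, edgeR adjusted p = 0.105). Its stiff replicates, at 99 and 100 counts, were close to each other.

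COL6A1 (111 and 128 CPM on soft, 92.5 and 71.9 on stiff) had a log2 fold change of -0.54 and COL6A2 (204 and 195 on soft, 130 and 160 on stiff) of -0.46, with edgeR adjusted p of 0.523 and 0.529. All 3 chains of collagen VI thus had lower values on stiff gel at 4 days in every library, without a call by this test. COL18A1 stood at 193 and 189 CPM on soft and 154 and 157 on stiff gel, a difference of -0.29 (SE 0.13, edgeR adjusted p = 0.747) with the closest replicates, in relative terms, of the 10 genes at that time. In the GRCh37 annotation (GENCODE v44 lifted) 18.5% of its exonic bases overlap exons of SLC19A1 on the opposite strand, and whether the counting used strand is not given in the sources used here.

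COL8A1 was the member with the highest estimate at 4 days, 0.65 on the log2 scale, with a 95% interval from -0.17 to 1.48 (edgeR adjusted p = 0.826). Its stiff libraries stood at 111.5 and 48.8 CPM and its soft libraries at 42.3 and 59.7, so the second stiff library was between the soft ones. COL12A1 was split in the same way, at 202 and 87.4 CPM on stiff and 98.8 and 141 on soft gel. COL16A1 was at 3.68 and 5.36 CPM on stiff and 4.99 and 3.29 on soft gel, with an estimate of 0.12 and a 95% interval from -0.51 to 0.75.

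The stiff 4-day library left out decided several values. Without the first, the log2 fold change of COL8A1 was -0.05, of COL12A1 -0.45, of COL4A1 -0.97 and of COL4A2 -0.67, and 6 members were called, all lower, beside 31.1% of the genes tested in that fit. Without the second, COL8A1 was at 1.14, COL12A1 at 0.76, COL4A1 at 0.06 and COL4A2 at 0.20, and 5 members were called, 3 lower and 2 higher, beside 3.63%. COL6A3 (-2.12 and -1.03) and COL7A1 (-1.11 and -1.36) were called lower without either. The lone remaining stiff library is assumed in these fits to vary like the other groups.

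**Figure D4:**
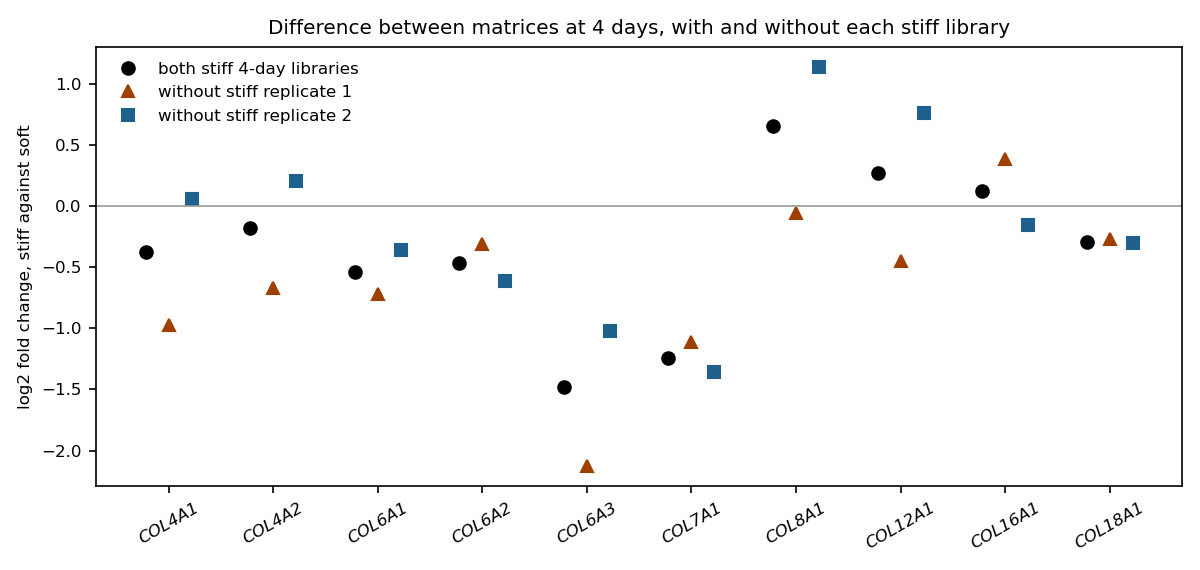
Log2 fold change of stiff against soft gel at 4 days (vertical axis) for each gene (horizontal axis), with both stiff libraries (black circles), without the first (triangles) and without the second (squares). COL6A3 and COL7A1 stay below -1 in all 3 fits, and COL8A1, COL12A1, COL4A1, COL4A2 and COL16A1 cross 0.

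At 2 days COL7A1 had the largest estimated difference between the matrices. None of the 10 genes passed the adjusted test, beside 0% of all genes tested (edgeR, Benjamini-Hochberg; DESeq2 called none of the 10 and 28 genes in all), and 1 of 10 had an unadjusted p under 0.05, beside 2.82%. That gene was COL7A1, at 25.7 and 25.5 CPM on soft and 12.9 and 18.9 on stiff gel, with a log2 fold change of -0.69 (SE 0.20, 95% interval -1.16 to -0.22, edgeR adjusted p = 1). It had lower values on stiff gel in both libraries on both days.

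COL6A3 was at 441 and 405 CPM on soft and 408 and 415 on stiff gel at 2 days, an estimate of -0.04 (95% interval -0.81 to 0.72). COL8A1 (29.9 and 27.3 on soft, 34.8 and 27.4 on stiff) and COL4A2 (546 and 470 on soft, 527 and 496 on stiff) overlapped too. COL4A1, COL6A1, COL6A2, COL7A1, COL16A1 and COL18A1 were lower in both stiff libraries and COL12A1 was higher in both, which makes 7 of 10 without overlap, beside 48.2% of all genes tested. The fit to the 4 libraries of day 2 alone, whose replicates lie close together, called 5 of the 10 genes lower (COL6A1, COL6A2, COL7A1, COL16A1 and COL18A1), beside 667 of all 14290 genes tested in it (4.67%), 353 of them lower.

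Whether the effect of stiffness changed from 2 to 4 days was tested as 1 term across all 8 libraries, and none of the 10 genes passed, beside 0% of all genes tested (edgeR; DESeq2 called none of the 10 and 3 genes in all). At an unadjusted p under 0.05 there was 1 of 10, beside 1.95%. This was COL6A3, which the lowest p of the 10: its effect was -0.04 at 2 days and -1.48 at 4 days, a change of -1.44 (SE 0.47, 95% interval -2.53 to -0.35, edgeR adjusted p = 1). COL7A1 changed from -0.69 to -1.24, by -0.55 (SE 0.30), and COL8A1 from 0.12 to 0.65, by 0.53 (SE 0.51), each with an interval that spans 0. The median log2 fold change of the 10 genes was -0.24 for stiffness at 2 days, -0.33 at 4 days, -0.30 for time on soft and -0.26 for time on stiff gel, beside 0.01, 0.02, 0.02 and 0.03 over all genes tested.

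Of 23 further genes of non-fibrillar collagens, 7 passed the filter on counts: COL4A5, COL4A6, COL9A2, COL13A1, COL15A1, COL17A1 and COL25A1. The chains COL4A3 and COL4A4, which form the collagen IV of the glomerular basement membrane with COL4A5, had at most 9 counts in any library, and COL8A2, the partner chain of COL8A1, at most 7. COL17A1, a transmembrane collagen of hemidesmosomes, was the only one of the 7 called, with lower values at 4 days on soft (-1.17, edgeR adjusted p = 0.00726) and on stiff gel (-0.75, edgeR adjusted p = 0.0332). None of the 7 was called between matrices on either day by edgeR, with 0 at 2 days and 1 at 4 days at an unadjusted p under 0.05, beside 2.82% and 6.93% of all genes tested.

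Of 16 tested genes that modify and fold collagen chains, 2 rose with time on soft gel, the prolyl hydroxylase subunit P4HA1 (0.82) and the lysyl hydroxylase PLOD2 (0.86), and 3 fell, P4HA2 (-0.43), PLOD1 (-0.43) and PLOD3 (-0.64), the last a lysyl hydroxylase that also glycosylates collagen. These counts stood beside 14.1% of all genes tested called higher and 13.3% called lower. On stiff gel the same 3 fell, P4HA2 by 0.63, PLOD1 by 0.41 and PLOD3 by 0.70, beside 13.7% called lower. P4HA1 (0.31, edgeR adjusted p = 0.18) and PLOD2 (0.58, edgeR adjusted p = 0.0821) had higher values at 4 days in both stiff libraries without a call, and their changes on the 2 matrices were not shown to differ (edgeR adjusted p = 1 for each). Between matrices 0 of 16 were called by edgeR on either day, with 1 and 2 at an unadjusted p under 0.05, beside 2.82% and 6.93% of all genes tested.

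Of 17 tested partners of collagen IV in basement membranes, the laminin chains LAMA2 and LAMA4 and the collagen-binding protein SPARC rose on both matrices, SPARC by 0.68 on soft and 0.73 on stiff gel. The heparan sulfate proteoglycan AGRN (-0.82 on soft, -0.83 on stiff) and the laminin chains LAMA5 (-1.08 and -1.40) and LAMB2 (-0.79 and -0.67) fell on both. HSPG2, the proteoglycan perlecan, fell by 1.87 on the log2 scale on stiff gel (SE 0.57, edgeR adjusted p = 0.0436), as did LAMA3 (-0.84). On soft gel HSPG2 (-1.71, edgeR adjusted p = 0.0566) and LAMA3 (-0.69, edgeR adjusted p = 0.0745) also had lower values at 4 days in both libraries, without a call. Their changes on the 2 matrices were not shown to differ, with differences of -0.16 (SE 0.78) and -0.15 (SE 0.36). The count was 3 higher and 3 lower on soft gel, beside 14.1% and 13.3% of all genes tested, and 3 higher and 5 lower on stiff gel, beside 14.0% and 13.7%. Between matrices it was 0 on either day, where 1 and 3 had an unadjusted p under 0.05, beside 2.82% and 6.93%.

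Among 10 collagen receptors tested, none was called with time on soft gel, and 3 fell on stiff gel, beside 13.3% and 13.7% of all genes tested called lower: the integrin subunits ITGA2 (-1.26, edgeR adjusted p = 0.0149) and ITGA10 (-1.66, edgeR adjusted p = 0.0161) and the receptor kinase DDR1 (-0.68, edgeR adjusted p = 0.017). Between the matrices themselves edgeR called 0 of 10 on either day, with 0 and 3 at an unadjusted p under 0.05, beside 2.82% and 6.93%. Whether the fall of these receptors differed between soft and stiff gel was tested with the same term as for the collagens, and none of the 10 passed.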

How the data were processed

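RNA-seq of LX-2 cells (NEBNext Ultra libraries, paired-end reads) was analysed from 2 deposited tables. The authors trimmed reads with TrimGalore, mapped them to hg19 with STAR (version 2.7.1a in the submitters' processing notes) and counted reads with htseq-count; these deposited counts are not normalized, and the annotation and strand setting are not given in the sources used here. A second table from the authors holds FPKM, in which the counts of 15016 of 15016 genes with reads in every library were scaled by median-of-ratios size factors, as judged by ratios between libraries that were equal within 1e-06. Reads of overlapping genes on opposite strands may therefore be discarded or assigned to either gene. Gene levels were compared as FPKM because it is divided by gene length.

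Groups and replicate numbers came from the sample labels and stiffness from the paper. The study describes the replicates as independent experiments. The main test was the edgeR 4.0.16 quasi-likelihood test (R 4.3.3) in 1 fit of all 8 libraries with 4 conditions, after filterByExpr (14570 of 25369 genes) and TMM scaling, with Benjamini-Hochberg adjustment over all genes tested and a threshold of 0.05. CPM of members carried the TMM factors. Non-overlap means that every library of one group was above every library of the other. Alternatives were DESeq2 1.42.0, limma 3.58.1 on log2(FPKM + 1) or log2(FPKM + 0.1), voom with sample weights, other scaling and filters, a replicate block and leaving out each library. The fit was tested on simulated data: of 200 genes changed by 2 on the log2 scale among 14339, it recovered 164 for stiff against soft at 4 days with 8 false calls, and 170 for time on stiff gel with 16. The simulated noise was drawn for each gene on its own, with no shift shared by many genes within a library. The recovery therefore does not describe smaller changes, or stiff 4-day libraries that stand apart from each other. All 10 members were named in every comparison, and of other lists the genes past the threshold, at most 8 per list and comparison. The members and lists were chosen with earlier results of these data known.

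Coordinates and overlaps of genes are from GENCODE v44 lifted to GRCh37, and sequences and motifs from RefSeq windows on GRCh38.p14.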

Additional observations from a re-analysis of the deposited data

How the results depend on the processing

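The log2 fold changes of all 10 members were followed over the 4 comparisons between conditions. The change of the stiffness effect was followed only for members called with time in the main fit (COL6A1, COL6A3, COL7A1, COL8A1 and COL16A1). Each was followed over up to 20 other settings (8 leaving out 1 library, 11 further planned ones, and 1 chosen after seeing the data). Of these values 785 kept their direction and their side of the threshold. With the direction kept, 42 gained and 37 lost a call, and 31 changed sign, whether or not the call changed. The cause was not tested, and fits with fewer libraries change both how many libraries there are and which ones remain.

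The count of called members was 0 for stiffness at 2 days. It became 5 with only the 4 libraries of that day (4.67% of all genes tested) and 1 with voom sample weights (1.28%). The count at 2 days also did not stay at 0 in every fit without 1 library. At 4 days it was 0, and 2 by DESeq2 (1.04%); leaving out 1 library gave 0 to 6. For time on soft gel it was 4 (27.4%), and 7 with only the 4 soft libraries (50.7%), 7 with voom weights (49.1%), and 2 with limma on log2(FPKM + 1) without a filter (16.7%); leaving out 1 library gave 0 to 8. For time on stiff gel it was 4 (27.6%), and 0 with only the 4 stiff libraries (0%) and 2 with voom weights (13.9%); leaving out 1 library gave 2 to 9. For the change of the stiffness effect it was 0 in the main fit and in every other setting that kept all 8 libraries. It did not stay at 0 in every fit without 1 library. On leaving out 1 library, the estimate of that change for COL6A3 ran from -2.08 to -0.98. The log2 fold change of COL7A1 for stiffness at 2 days ran from -0.99 to -0.44 in those fits.

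Groups share replicate numbers 1 and 2, but the deviations of same-numbered libraries correlated by -0.04 at 2 days, -0.49 at 4 days, 0.08 on soft and 0.02 on stiff gel, so the numbers were not taken to pair libraries. With the replicate block 2 members were called for time on soft gel (COL7A1 and COL16A1, beside 2626 of 14570 genes in all) and COL4A2 was at -0.0269 on stiff gel. An alternative with the stiff 4-day numbers crossed was chosen after seeing the data. It called 0 members for stiffness, beside 0% of all genes tested at 2 days and 0.426% at 4 days. For time it called 4 members on soft gel and 4 on stiff gel, beside 31.2% of all genes tested in each. COL4A2 was at -0.0337 for time on stiff gel in that setting.

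COL4A2, near 0 in the main result, changed sign most. For time on stiff gel it was -0.0112 by DESeq2, -0.00973 with RLE factors, -0.102 without scaling factors, -0.0222 without a filter, -0.0157 with at least 10 counts in every library, -0.075 and -0.0766 with limma at pseudocounts 1 and 0.1, -0.075 with limma without a filter and -0.0684 with voom weights. For stiffness at 2 days it was -0.0555 without scaling factors and -0.0022 with at least 10 counts in every library. COL16A1 at 4 days was -0.00774 without scaling factors, a setting that moved the median of all genes to -0.09 there and to -0.10 for time on stiff gel.

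On leaving out 1 library, sign changes gave these ranges. For stiffness at 2 days they were -0.0932 to 0.123 for COL4A2, -0.10 to 0.0239 for COL6A3 and -0.0623 to 0.289 for COL8A1. At 4 days they were -0.16 to 0.46 for COL16A1, -0.0544 to 1.14 for COL8A1, -0.45 to 0.76 for COL12A1, -0.97 to 0.0611 for COL4A1 and -0.67 to 0.20 for COL4A2. For time they were -0.185 to 0.0922 for COL6A2 on soft gel, and -0.50 to 0.36 for COL4A2, -0.31 to 0.72 for COL4A1 and -0.93 to 0.27 for COL12A1 on stiff gel. For the change of the stiffness effect, followed only in the members called with time, the range was -0.17 to 1.02 for COL8A1. With 2 libraries per condition, differences such as that of COL8A1 at 4 days are limited by the spread between replicates rather than by counts.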

Other observations

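The genes whose pattern over the 8 libraries was most like that of a called member were found by the root mean square difference of log2 CPM, each gene centred on its own mean. For COL6A1 these were NAB2 (0.0812), SYNJ2 (0.0874) and FBLN2 (0.089), the last of which encodes the matrix glycoprotein fibulin-2. For COL6A3 they were APCDD1L (0.237), BMP6 (0.261) and GPR17 (0.27), the nearest of them farther away than the nearest gene of any other called member. For COL7A1 they were DDIT4 (0.187), UBA7 (0.195) and MEGF6 (0.237), for COL16A1 KY (0.132), FLJ27354 (0.133) and CREB3L4 (0.134), and for COL8A1 PAPPA (0.183), KITLG (0.184) and DNAJB4 (0.211). The 8 libraries share 4 conditions, and the stiff 4-day replicates that stand apart weigh on each distance. The distance is also not scaled by how much a gene varies, and COL6A3 had the largest estimated change of the members.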
